A study of Homo sapiens with 24 samples.

Results

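The 24 RNA-seq libraries form a 2 by 2 factorial experiment in which epigallocatechin gallate (EGCG) and resveratrol were each given or left out. All 24 of 24 libraries were used, 6 in each of the 4 cells of the design. The quantity described here is the interaction, the log2 level with both agents minus that with resveratrol, minus that with EGCG, plus that with neither. It was 0 when the change with the combination equalled the sum of the log2 changes with the single agents, which is the same as the product of their fold changes. A gene above the sum had more transcript with the combination than the sum gives, and a gene below the sum had less. No gene was chosen beforehand for the test, which ran over every gene with enough counts. The gene lists described below were chosen with earlier results of these data known.

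The cells were 686Tu (MDA686TU), an established human line of squamous cell carcinoma of the head and neck, so the data come from 1 line. The groups were cells with no treatment (NT), cells given 40 µM EGCG, cells given 15 µM resveratrol, and cells given 40 µM EGCG with 15 µM resveratrol, each for 24 h. EGCG was dissolved in water and resveratrol came from a stock in DMSO. The methods do not say whether cells without resveratrol received DMSO, so resveratrol and its solvent cannot be told apart in a simple effect, and neither can EGCG beside resveratrol and EGCG beside DMSO in the interaction. Nothing in the labels says that the 6 libraries of a group came from separate cultures, and the p-values measure the spread between these libraries, which may be technical.

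EGCG is the main catechin of green tea, and resveratrol is a stilbene found in grapes. Both are polyphenols that react with oxidants and touch many enzymes, receptors and kinases, and both have been studied in models of carcinoma. In a keratinocyte, growth factor and cytokine signalling through MAP kinases drives immediate early genes and the AP-1 factors, and these in turn drive proteases, matrix proteins and cytokines. A cell that leaves the basal layer stops dividing and builds the cornified envelope, a sheath of cross-linked proteins under its membrane.

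The libraries held 7034872 to 11735574 counts, and the medians of the NT, EGCG, resveratrol and combination groups were 9072849, 8720820.5, 8649664 and 7887159. Replicates 1 to 3 and replicates 4 to 6 of each group stood apart in the share of mitochondrial transcripts, which was 0.249% to 0.326% in the first set and 0.448% to 0.775% in the second. The labels name no batch. Each set held 3 libraries of every group, and the set was a term of the model. With it, the biological coefficient of variation was 4.06%. The 12 squamous epithelial markers summed to 5560 to 7180 FPKM per library, led by KRT14, KRT6A and KRT5. The 15 markers of other cell types summed to 11.1 to 21.4 FPKM, most of it from COL1A1. The T cell marker CD3E and the endothelial marker PECAM1 had a median of 0, and the endothelial markers VWF and CDH5 had medians of 0.14 and 0.0313.

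Of 15476 genes tested with edgeR's quasi-likelihood test, 79 (0.51%) were differentially expressed genes (DEGs) for the interaction, by a Benjamini-Hochberg adjusted p under 0.1 and a p under 0.05. Of these, 57 (0.368% of the genes tested) lay above the sum and 22 (0.142%) below it. With counts scaled by library size alone, the split was 45 above and 29 below. The departures were small, with a median size of 0.31 on the log2 scale and a range of 0.13 to 1.07. Only 11 of the 79 departed by 1.5-fold or more, and 3 by 2-fold or more (MMP3 and PSG9 above the sum and SERPINB11 below it). Left out in turn, 16 of the 24 libraries cost PSG9 its call and 12 cost SERPINB11 its call, and none cost MMP3 its call. Over all genes tested, the median interaction was -0.00508, and 48.1% of genes lay above 0. An unadjusted p under 0.05 was seen in 1324 genes (8.56%), 658 above and 666 below.

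For each combination library, the level was set against the level that the sum predicts within its own set of replicates. All 6 combination libraries lay on the called side of that level in 78 of the 79 DEGs, where 15.4% of all genes tested had all 6 on one side (7.92% above and 7.53% below). These libraries also entered the choice of the 79, so this is a description. The exception was UPP1, which encodes uridine phosphorylase, with 5 of 6 libraries above.

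The change that EGCG made in cells without resveratrol was then compared with the change that it made beside resveratrol, of which the interaction is the difference. Over all genes tested, EGCG alone gave 342 DEGs (2.21%), 1.11% of genes upward and 1.1% downward, and EGCG beside resveratrol 1408 (9.1%), 4.59% upward and 4.5% downward. Among the 79 interaction DEGs, EGCG changed 19 when given alone, 3 upward and 16 downward, and 72 beside resveratrol, 48 upward and 24 downward. In 57 of the 79 EGCG passed the test beside resveratrol and not alone. In 6 of them EGCG passed in both settings with opposite signs. They included CYP24A1, COL1A1, IER3, MMP3 and ANKRD1, and each of the 6 fell with EGCG alone and rose with EGCG beside resveratrol.

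**Figure D1:**
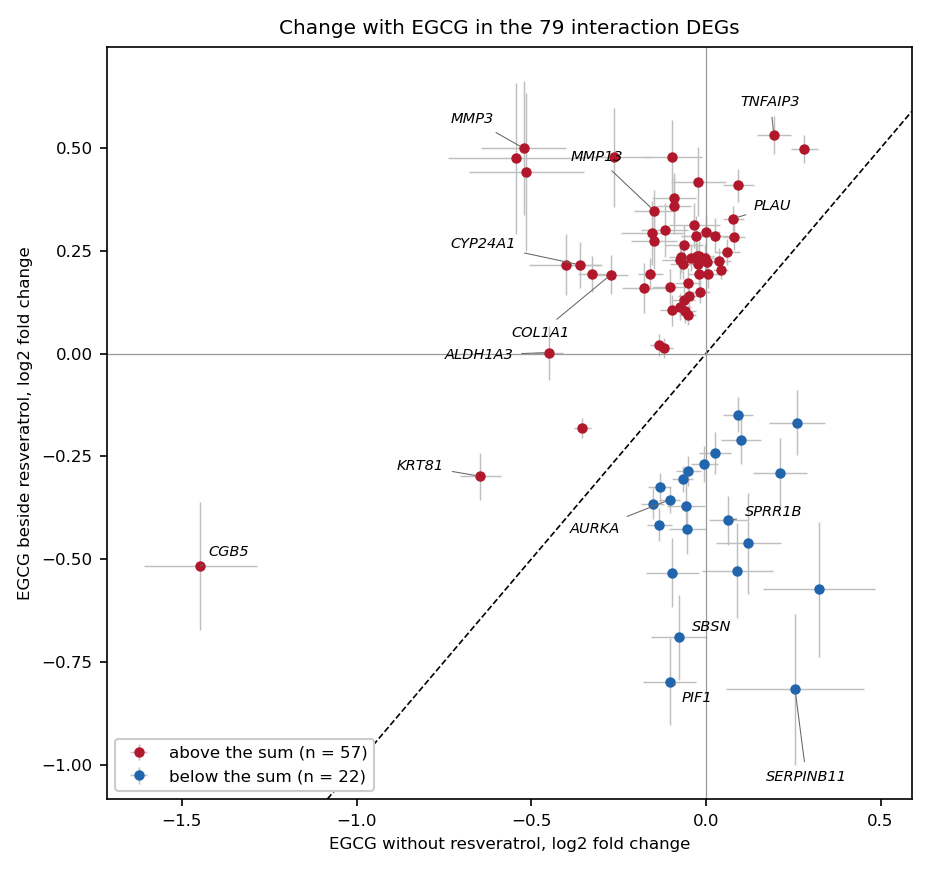
Log2 fold change with EGCG beside resveratrol (vertical axis) against that with EGCG alone (horizontal axis) for the 79 interaction DEGs, with bars of 1 SE. Points above the dashed line of equal change are the 57 genes above the sum, most of them between -0.5 and 0.3 on the horizontal axis and above 0 on the vertical, and points under it are the 22 genes below the sum.

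Resveratrol without EGCG changed 8972 genes (58%), 29.4% of genes upward and 28.6% downward, and resveratrol beside EGCG 9102 (58.8%), 29.2% upward and 29.6% downward. Among the 79 interaction DEGs resveratrol without EGCG changed 66, 23 upward and 43 downward. The 57 genes above the sum fell into a few arrangements. Resveratrol lowered 30 of them, and in 23 of those EGCG beside resveratrol raised the level again. The mean with the combination then lay between the resveratrol mean and the NT mean in 21 of the 23. Resveratrol raised 19 of the 57, and EGCG raised 18 of these further. Of the 22 genes below the sum, resveratrol lowered 13, and EGCG lowered all 13 of those further. Relative to the sum of the single changes, 20 of the 57 went beyond it in the same direction, 26 stopped short of it and 11 turned to the other sign. Of the 22 below the sum, 16 went beyond it, 1 stopped short and 5 turned. These changes share libraries with one another and with the interaction, so the counts are descriptions.

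PLAU (ENSG00000122861, chromosome 10, 73909177 to 73917496, GRCh38) encodes urokinase, a protease that turns plasminogen into plasmin. Its normalized counts (lowest, median and highest of 6 libraries) were 3332, 3656 and 3804 in NT cells, 3424, 3823 and 4166 in EGCG cells, 3143, 3168 and 3281 in resveratrol cells and 3749, 3962 and 4376 in combination cells. All combination libraries were above all resveratrol libraries and overlapped the other groups. The sum of the single agents predicted 3370, and the combination had 4015 ± 241 (mean ± SD, n = 6), 1.19-fold the prediction. The interaction was 0.25 ± 0.042 (SE), adjusted p = 0.000937. SERPINB2, which encodes plasminogen activator inhibitor 2, was at 72.2, 81.3 and 98.6 in resveratrol cells and 95.2, 114 and 132 in combination cells, ranges that overlapped, and had an interaction of 0.58 ± 0.12 (SE), adjusted p = 0.0153. The urokinase receptor gene PLAUR, the tissue activator gene PLAT and SERPINE2 were not DEGs, with interactions of 0.25, 0.34 and 0.06.

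COL1A1 (ENSG00000108821, chromosome 17, 50184101 to 50201632) encodes the alpha 1 chain of type I collagen. In normalized counts it was at 1083, 1155 and 1328 in NT cells, 875, 974 and 1092 in EGCG cells, 1283, 1482 and 1531 in resveratrol cells and 1498, 1692 and 1718 in combination cells. All combination libraries were above all NT libraries, while the combination and resveratrol ranges overlapped, as did the EGCG and NT ranges. The combination mean was 1649.6 ± 88.3 against a prediction of 1199, and the interaction was 0.46 ± 0.068 (SE), adjusted p = 0.000168. COL1A1 is also a fibroblast marker and supplied most of the summed FPKM of the 15 markers of other cell types. That sum therefore moved with it, at 11.1 to 13.4 with EGCG and 18.8 to 21.4 with the combination, and is not a second observation. Of the other 14 markers, COL1A2 and VWF were tested, with interactions of 0.30 and -0.26 that did not pass. The markers COL3A1, PTPRC and CD3E had a median of 0, and the highest medians of the 14 were 0.29 FPKM for ACTA2, 0.239 for CD68 and 0.202 for COL1A2. COL5A1, a chain of type V collagen, had an interaction of 0.27 ± 0.065 (SE), adjusted p = 0.0518, and these were the only DEGs among 20 collagen chains tested, 16 of which lay above 0.

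FN1, which encodes fibronectin, was at 1180.5, 1292 and 1357 in NT and 1037, 1057 and 1103 in resveratrol cells, ranges that did not overlap. With the combination it was at 1121, 1248 and 1315, above every resveratrol library and overlapping NT and EGCG. The interaction was 0.28 ± 0.051 (SE), adjusted p = 0.00221. TNC and TGFBI, named after their values were seen, encode tenascin C and a matrix protein that binds integrins, and lay above the sum by 0.24 and 0.17. EGCG lowered TGFBI in both settings, with log2 changes of -0.35 alone and -0.18 beside resveratrol. Of 14 matrix glycoproteins tested, 3 were DEGs and 12 lay above 0.

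MMP13 (ENSG00000137745, chromosome 11, 102942995 to 102955732) encodes collagenase 3. The level in normalized counts was 294, 347 and 362 in NT cells, 291, 301 and 325 in EGCG cells, 399, 433 and 464 in resveratrol cells and 483, 547 and 603 in combination cells. Every combination library exceeded all libraries of the other groups. The interaction was 0.50 ± 0.076 (SE), adjusted p = 0.000222. MMP3, the gene of stromelysin 1, which was named after its values were seen, had a larger departure at lower counts. Normalized counts of the gene were 46.5, 58.1 and 64.5 in NT cells, 33, 39.9 and 45.7 in EGCG cells, 16.2, 19.4 and 25.3 in resveratrol cells and 19.3, 30.4 and 35.7 in combination cells. NT was highest, EGCG lower with no overlap, and the resveratrol and combination ranges overlapped each other. The interaction was 1.02 ± 0.2 (SE), adjusted p = 0.00682. No other member passed among 12 matrix metalloproteinases tested, of which 10 lay above 0. HAS3, which encodes a hyaluronan synthase, was at 1480, 1599 and 1674 in resveratrol cells and 1828, 1874 and 1893 in combination cells, with no overlap, and had an interaction of 0.27 ± 0.045 (SE), adjusted p = 0.000612. CEMIP2, a cell surface hyaluronidase, and SDC4, the heparan sulfate proteoglycan syndecan 4, were above the sum by 0.26 and 0.17.

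**Figure D2:**
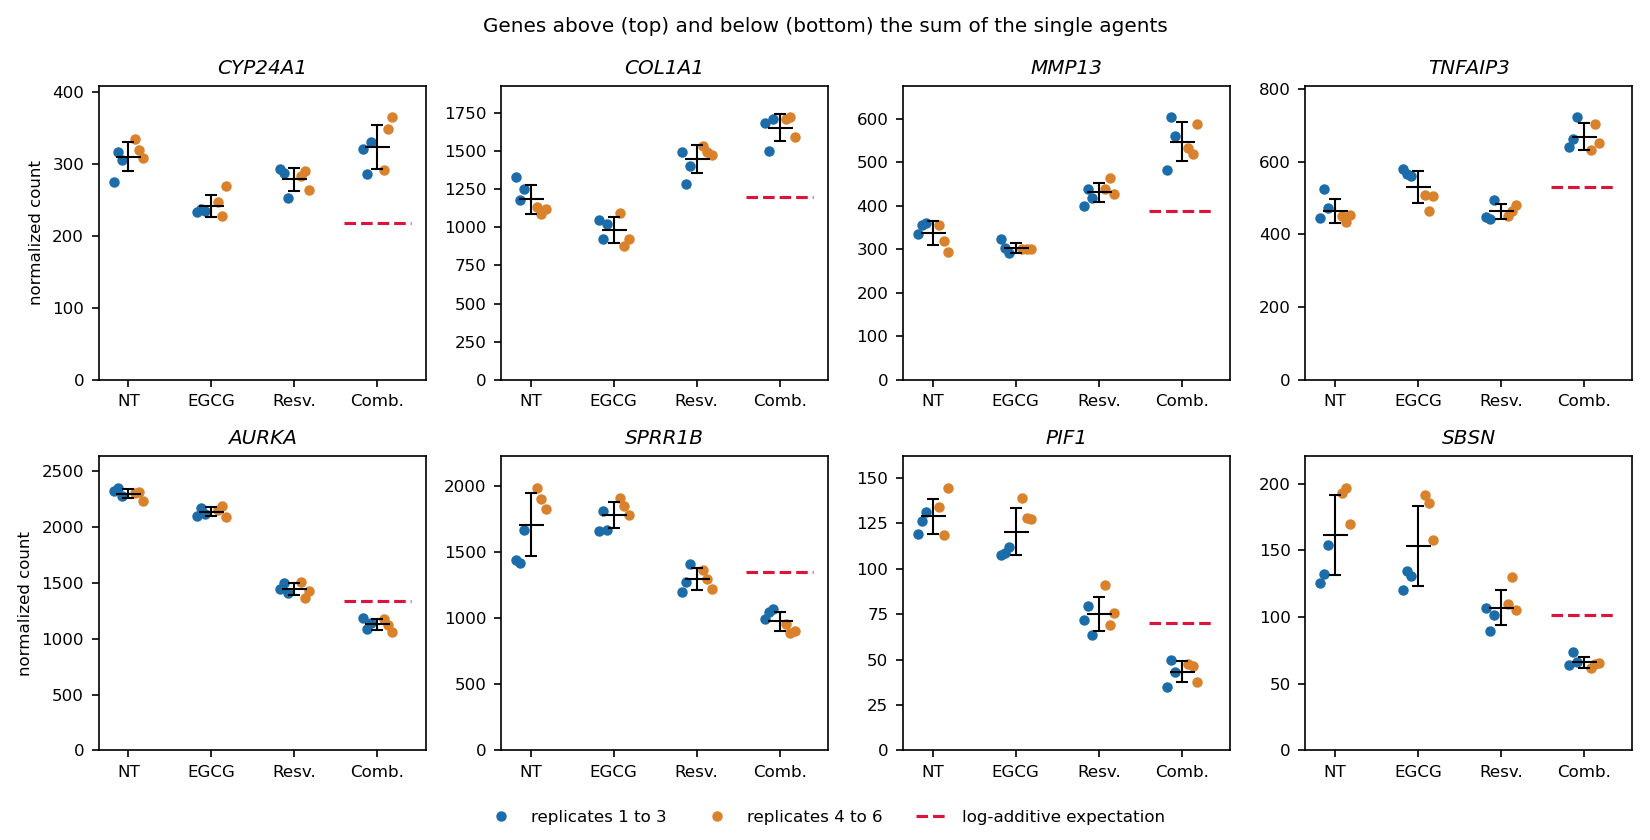
Normalized count (vertical axis) in each of the 24 libraries for 4 genes above the sum (top) and 4 below it (bottom), by group, with the mean and SD of 6 libraries in black and the level predicted by the sum of the log2 changes as a dashed line. The combination libraries of CYP24A1 averaged 324 ± 30.8 against a predicted 218, and those of PIF1 averaged 43.2 ± 5.82 against 70.1.

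Among the AP-1 and immediate early genes, 5 of 25 tested were DEGs, all above the sum. The median of the list was 0.127 and 23 of the 25 lay above 0. IER3 (ENSG00000137331, chromosome 6, 30743199 to 30744548), an immediate early gene that modulates cell survival, had normalized counts of 935, 1029.5 and 1122 in NT cells, 859, 919 and 998 in EGCG cells, 578, 679 and 729 in resveratrol cells and 700.3, 749.7 and 809 in combination cells. Both groups with resveratrol were below both without, and the combination and resveratrol ranges overlapped. The interaction was 0.35 ± 0.053 (SE), adjusted p = 0.0002. DUSP5 (ENSG00000138166, chromosome 10, 110497907 to 110511533) encodes a nuclear phosphatase that inactivates the MAP kinase ERK. Its normalized counts were 207, 219 and 224 in NT cells, 187, 201 and 220.4 in EGCG cells, 179.6, 209 and 229.5 in resveratrol cells and 250.2, 267 and 285 in combination cells. No combination library fell within the ranges of the other groups, all of which were lower and overlapped one another. The interaction was 0.47 ± 0.087 (SE), adjusted p = 0.00315. AREG, a ligand of the EGF receptor, FOSL1, a subunit of AP-1, and PHLDA1 departed by 0.21, 0.19 and 0.19. Resveratrol alone lowered all 3, with log2 changes of -0.40, -0.82 and -0.21. Members that did not pass included JUNB at 0.16, HBEGF at 0.19, FOS at 0.36 and DUSP6 at -0.14. ATF3, which belongs to this list and to the RT-qPCR genes described further on, was at 0.32 ± 0.092 (SE) with an adjusted p of 0.17 and did not pass.

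The list of NF-kappaB targets and inflammatory cytokines had the highest median of the lists with over 6 genes tested, 0.26 over 30 genes, and 27 of the 30 lay above 0. Only 3 were DEGs, IL1A, IL1B and TNFAIP3, all above the sum. IL1A (ENSG00000115008, chromosome 2, 112773925 to 112784493) encodes interleukin 1 alpha, which keratinocytes release as an alarm signal. In normalized counts it was at 2235, 2416 and 2579 in NT cells, 2094, 2272 and 2529 in EGCG cells, 1072, 1189 and 1302 in resveratrol cells and 1257, 1405 and 1539.7 in combination cells. Resveratrol libraries were far below NT, and the combination range lay above and slightly overlapped the resveratrol range. The interaction was 0.31 ± 0.051 (SE), adjusted p = 0.000937. IL1B (ENSG00000125538, chromosome 2, 112829751 to 112836816), the neighbouring gene of interleukin 1 beta, was at 361, 413 and 423 in NT cells, 342, 378 and 424 in EGCG cells, 132, 139.6 and 159 in resveratrol cells and 164, 191 and 196 in combination cells. All combination libraries were above all resveratrol libraries and below NT and EGCG. The interaction was 0.45 ± 0.085 (SE), adjusted p = 0.00341.

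TNFAIP3 (ENSG00000118503, chromosome 6, 137867214 to 137883314) encodes A20, an inhibitor of NF-kappaB signalling that is itself induced by it. The level in normalized counts was 434, 452 and 526 in NT cells, 466, 534 and 581 in EGCG cells, 443, 458 and 494 in resveratrol cells and 633, 657 and 721 in combination cells. With both agents all libraries were above those of the other 3 groups, whose ranges overlapped. Resveratrol alone gave a change of 0.00, EGCG alone gave 0.19, and EGCG beside resveratrol gave 0.53. The interaction was 0.34 ± 0.067 (SE), adjusted p = 0.00682. The members that did not pass included CSF2 at 1.08, IL24 at 0.71, IL6 at 0.65 and CXCL1 at 0.32 above the sum and SAA2 at -0.37 and CCL20 at -0.26 below it.

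CYP24A1 (ENSG00000019186, chromosome 20, 54153446 to 54173986) encodes the hydroxylase that starts the breakdown of active vitamin D. Normalized counts of the gene were 275, 313 and 335 in NT cells, 228, 236 and 270.1 in EGCG cells, 253, 286 and 293 in resveratrol cells and 287, 326 and 365 in combination cells. EGCG libraries lay under all NT libraries, and the combination range reached the highest values of the 4 groups and overlapped NT and resveratrol. Each agent alone lowered it, with log2 changes of -0.36 with EGCG and -0.15 with resveratrol, while the combination was at 324 ± 30.8 against a prediction of 218. The interaction was 0.58 ± 0.082 (SE), adjusted p = 0.000104.

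ALDH1A3 (ENSG00000184254, chromosome 15, 100877714 to 100916626), which makes retinoic acid from retinal and is in the list of aryl hydrocarbon receptor targets, had another arrangement. Its normalized counts were 745, 770.0 and 823 in NT cells, 546, 568 and 597 in EGCG cells, 143, 160.1 and 175 in resveratrol cells and 142, 159.6 and 176 in combination cells. EGCG lowered it with no overlap in cells without resveratrol, while the resveratrol and combination ranges were nearly the same. The change with EGCG was -0.45 alone and 0.00 beside resveratrol, and the interaction was 0.45 ± 0.078 (SE), adjusted p = 0.00102. On the scale of counts the sum of the single changes would put it below 0, at -52.1, a level that no transcript can have. The other 6 list members tested were not DEGs, among them CYP1A1 at 0.70 and CYP1B1 at 0.29, both of which resveratrol alone lowered.

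PPIF (ENSG00000108179, chromosome 10, 79347469 to 79355334) encodes cyclophilin D of the mitochondrial matrix. In normalized counts it was at 2414, 2474 and 2585 in NT cells, 2362, 2454 and 2664 in EGCG cells, 2412, 2442 and 2489 in resveratrol cells and 2745, 2853 and 2973 in combination cells. The combination libraries were above all others, and the change with each agent alone did not pass the test, at 0.00 with EGCG and -0.02 with resveratrol. The interaction was 0.22 ± 0.037 (SE), adjusted p = 0.000937. FAM83C, a member of a family of scaffold proteins, fell with resveratrol alone (log2 change -1.23) and had an interaction of 0.26 ± 0.045 (SE), adjusted p = 0.000937.

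The ATF4 and CHOP list and the p53 list each held a single DEG. PPP1R15A, which encodes GADD34, a regulatory subunit that restores translation after stress, was 1 of 39 genes of the ATF4 and CHOP list, at 625, 640.0 and 693 in NT and 810.3, 896 and 969.5 in combination cells, ranges that did not overlap. Its interaction was 0.24 ± 0.052 (SE), adjusted p = 0.0175, while the median of the list was 0.0296. CDKN1A, which encodes the cell cycle inhibitor p21, was 1 of 29 genes of the p53 list, with an interaction of 0.19 ± 0.048 (SE), adjusted p = 0.0851 on top of a rise of 1.11 with resveratrol alone. The median of the p53 list was -0.0235.

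Other genes above the sum were named after their values were seen. Several act on the cytoskeleton. They were ARHGEF2, a microtubule-bound activator of RhoA (0.32), MICAL2, an enzyme that oxidizes actin (0.30), the migfilin gene FBLIM1 (0.22), the alpha tubulin TUBA4A (0.15) and FILIP1L (0.42). ANKRD1, which encodes a muscle ankyrin repeat protein also made in epithelial lines, fell with EGCG alone (log2 change -0.40) and rose with EGCG beside resveratrol (0.22), an interaction of 0.62 ± 0.13 (SE), adjusted p = 0.0118. CLDN1 of the tight junction (0.22) and the junction scaffold MAGI1 (0.44) were also above. With 1 library left out at a time, MAGI1 lost its call in 15 of 24 fits, TUBA4A in 9 and CLDN1 in 6.

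A second set encodes receptors and signalling proteins. It held the retinoid-inducible receptor GPRC5A (0.20), the oxidized LDL receptor OLR1 (0.30), the semaphorin SEMA7A (0.42), the G protein regulator RGS3 (0.35), the adaptor SHC1 (0.16) and PTHLH, the gene of parathyroid hormone-related protein (0.13). Transcription and RNA-binding factors were ETS2 (0.20), SOX15 (0.19) and RBMS2 (0.19). The metabolic enzymes UPP1 (0.19) and KMO, the kynurenine monooxygenase (0.96), were also above. GTPBP2 (0.33), PCNX2 (0.34), MORN4 (0.45) and ENSG00000285831 (0.74), for which no symbol was matched, also lay above. With 1 library left out at a time, PTHLH lost its call in 20 of 24 fits, RGS3 in 19, SHC1 in 18 and MORN4 in 17. RBMS2 and PCNX2 lost it in 14, ETS2 in 13 and UPP1 in 12, while GPRC5A, SEMA7A, SOX15 and GTPBP2 kept it each time.

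CGB5, PSG9 and KRT81 belong to families of near-identical copies, so that reads may be split among members in ways the sources used here do not state. CGB5, a gene of the beta chain of chorionic gonadotropin, departed by 0.93 ± 0.23 (SE), and the summed counts of 6 CGB genes by 0.577. PSG9, a pregnancy-specific glycoprotein gene, departed by 1.02 ± 0.27 (SE), and the sum of 10 PSG genes by 0.625. The hair keratin KRT81 departed by 0.35 ± 0.082 (SE), and the sum of KRT81, KRT83 and KRT86 by 0.366. EGCG alone lowered CGB5 and KRT81, with log2 changes of -1.45 and -0.65, and the changes beside resveratrol were -0.52 and -0.30.

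Genes below the sum were led by those of mitosis. Of 47 mitosis genes tested, 6 were DEGs, all below the sum, and 45 of the 47 had a value below 0. The median was -0.0991, and it was -0.101 and -0.132 within the first and the second set of replicates. The median log2 change of the list was -0.337 with resveratrol alone, -0.0749 with EGCG alone and -0.174 with EGCG beside resveratrol.

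AURKA (ENSG00000087586, chromosome 20, 56369389 to 56392337) encodes Aurora kinase A, which matures centrosomes and builds the spindle. The level in normalized counts was 2229, 2307 and 2349 in NT cells, 2091, 2133 and 2187 in EGCG cells, 1360.2, 1438 and 1506 in resveratrol cells and 1056, 1130.1 and 1189.5 in combination cells. The 4 ranges did not overlap, with NT highest and the combination lowest. The combination had 1129 ± 51.5 against a prediction of 1339.9, and the interaction was -0.25 ± 0.043 (SE), adjusted p = 0.000937. PLK1 (ENSG00000166851, chromosome 16, 23677656 to 23690367), the kinase that AURKA activates at entry into mitosis, was at 2036, 2150.3 and 2274 in NT cells, 1871, 1909 and 2007 in EGCG cells, 1012, 1138 and 1179 in resveratrol cells and 818, 865 and 953 in combination cells. Its ranges did not overlap either and stood in the same order. The interaction was -0.21 ± 0.051 (SE), adjusted p = 0.0486, and it was -0.11 in the first set of replicates and -0.32 in the second. PLK1 was not called without NT replicate 6, resveratrol replicate 2 or 5, or combination replicate 5 or 6, where the interaction lay between -0.21 and -0.20.

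TOP2A (ENSG00000131747, chromosome 17, 40388525 to 40417896) encodes topoisomerase II alpha, which untangles sister chromatids. Normalized counts of the gene were 5049.6, 5649 and 5794 in NT cells, 4965, 5256 and 5763 in EGCG cells, 4231, 4317 and 4500.1 in resveratrol cells and 3179.5, 3641 and 3690.4 in combination cells. The combination libraries were below all resveratrol libraries, and these were below NT and EGCG, which overlapped. The interaction was -0.24 ± 0.043 (SE), adjusted p = 0.00247. CENPA (ENSG00000115163, chromosome 2, 26764289 to 26801067), the histone H3 variant that marks centromeres, was at 302, 307 and 333 in NT cells, 283, 302 and 320.3 in EGCG cells, 206, 231 and 259 in resveratrol cells and 152, 173 and 195 in combination cells. Its ranges stood in the same order with the same overlap. The interaction was -0.37 ± 0.079 (SE), adjusted p = 0.0135. KIF20A, a kinesin of cytokinesis, and FAM83D, a spindle protein, departed by -0.28 ± 0.054 (SE), adjusted p = 0.00408, and by -0.19 ± 0.048 (SE), adjusted p = 0.0647. BORA, which helps AURKA activate PLK1 and is not in the list, was below the sum by -0.31, and PDS5B, a regulator of cohesin, by -0.27, but their calls were lost without 19 and 20 of the 24 libraries left out in turn. The members nearest the threshold on its outer side were CDC20 and CCNB1, at -0.18 and -0.17 with adjusted p = 0.101 and 0.101. AURKB, BIRC5 and MKI67, 3 other genes of dividing cells, were at 0.00, -0.02 and 0.02.

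The promoters of genes expressed late in the cell cycle often hold a CHR element, which the MuvB complexes bind. The letters TTTGAA were searched on both strands in the 250 bases before the gene start in the RefSeq promoter table (GRCh38.p14), a motif chosen with these results known. They were present in 8 of the 17 genes below the sum that have an entry (47.1%), in 4 of 38 above it (10.5%), in 8.29% of the 10379 tested genes with an entry and in 13.6% of all 27305 promoters in the table. The CCAAT box, searched the same way, was in 52.9% of the genes below, 26.3% of those above, 35.3% of tested genes with an entry and 33.0% of all promoters. For PLK1 and CENPA, the start in this table lies inside the gene as given above. The 8 genes below the sum with a match were BORA, CENPA, KRT10, PIF1, PLK1, SERPINB3, SMIM30 and TOP2A, and KIF20A, a mitosis DEG with an entry, had none. A match is a description of the letters in this window and not a bound site. The promoters of PLK1 (chr16:23678639-23678888, plus strand), CENPA (chr2:26785806-26786055, plus strand) and TOP2A (chr17:40417897-40418146, minus strand) are shown because these 3 mitosis DEGs hold the letters, with the match in capitals, TTTGAA or its reverse complement.
PLK1: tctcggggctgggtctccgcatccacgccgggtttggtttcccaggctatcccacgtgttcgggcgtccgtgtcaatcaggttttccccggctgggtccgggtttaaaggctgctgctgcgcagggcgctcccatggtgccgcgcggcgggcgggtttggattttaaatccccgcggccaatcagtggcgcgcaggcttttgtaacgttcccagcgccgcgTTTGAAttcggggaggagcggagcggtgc
CENPA: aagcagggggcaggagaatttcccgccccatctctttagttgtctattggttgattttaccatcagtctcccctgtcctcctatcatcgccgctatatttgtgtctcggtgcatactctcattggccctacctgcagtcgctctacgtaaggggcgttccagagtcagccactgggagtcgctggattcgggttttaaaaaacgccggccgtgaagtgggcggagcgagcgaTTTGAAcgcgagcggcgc
TOP2A: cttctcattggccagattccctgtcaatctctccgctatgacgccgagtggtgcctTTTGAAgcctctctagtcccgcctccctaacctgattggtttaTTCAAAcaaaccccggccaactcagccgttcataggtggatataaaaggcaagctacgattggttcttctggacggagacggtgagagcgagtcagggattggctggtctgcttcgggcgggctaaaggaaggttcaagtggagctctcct

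The match ended close to the gene start in PLK1 and CENPA, beginning 29 and 18 bases before it, and TOP2A held 2 matches that began 194 and 151 bases before it.

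The cornified envelope was the other list that lay below the sum. Of 36 genes listed, 25 were tested and 3 were DEGs, all below, and 21 of the 25 had a value below 0. The median of -0.351 was the lowest of all lists. The median log2 change of the list was -0.502 with resveratrol alone, -0.0747 with EGCG alone and -0.406 with EGCG beside it. SPRR1B (ENSG00000169469, chromosome 1, 153031203 to 153032900) encodes a small proline-rich protein that is cross-linked into the envelope. Its normalized counts were 1421, 1747 and 1986 in NT cells, 1662, 1799 and 1911 in EGCG cells, 1197, 1284 and 1409.9 in resveratrol cells and 888, 977 and 1069 in combination cells. NT and EGCG overlapped, resveratrol was lower, and the combination was below all resveratrol libraries. The interaction was -0.47 ± 0.081 (SE), adjusted p = 0.000986. SBSN (ENSG00000189001, chromosome 19, 35523367 to 35528351), which encodes suprabasin of the upper epidermal layers, was at 125, 162 and 197 in NT cells, 120.3, 146 and 191 in EGCG cells, 89.5, 106 and 130.0 in resveratrol cells and 61.7, 64.9 and 73.8 in combination cells. The combination libraries were again below all others, and the other ranges overlapped. The interaction was -0.61 ± 0.13 (SE), adjusted p = 0.0147. SPRR2E departed by -0.58 ± 0.15 (SE), adjusted p = 0.0954.

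SPRR genes are near-identical copies within each subfamily, and reads may be shared. Summed over 2 SPRR1 genes the interaction was -0.457, and over 6 SPRR2 genes it was -0.354. Single members ranged widely. CALML5 was at -1.35, SPRR2G at -0.80, the elastase inhibitor PI3 at -0.40 and involucrin (IVL) at -0.27, none of which passed, while FLG was at 0.21, TGM1 at 0.10 and EVPL at -0.01. CALML5 and SPRR2G had few counts, with means of 12.5 and 27.0 in NT and 5.41 and 8.96 in combination cells. The SE of their interactions were 0.395 and 0.321. KRT10 (ENSG00000186395, chromosome 17, 40818117 to 40822614), the keratin of the first differentiated layer, was at 669, 681 and 730.3 in NT cells, 645, 664 and 699 in EGCG cells, 659, 669.8 and 700.2 in resveratrol cells and 529, 556 and 571 in combination cells. The combination libraries were below all others, and the other 3 ranges overlapped. The interaction was -0.24 ± 0.051 (SE), adjusted p = 0.0155. An antisense gene with 112 normalized counts on average overlaps KRT10, which has 645. Its partner keratin KRT1 was at -0.49 and did not pass, and of 23 keratins tested KRT10 and KRT81 were the DEGs, on opposite sides.

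The AP-1 site TGANTCA was searched in the same window on both strands. It was in 3 of 38 genes above the sum with an entry (7.89%), 2 of 17 below (11.8%), 4.09% of tested genes with an entry and 6.6% of all promoters. SPRR1B, below the sum, and IL1A, above it, are shown because both hold the letters and lie on opposite sides (chr1:153030953-153031202, plus strand, and chr2:112784494-112784743, minus strand). The match is in capitals.
SPRR1B: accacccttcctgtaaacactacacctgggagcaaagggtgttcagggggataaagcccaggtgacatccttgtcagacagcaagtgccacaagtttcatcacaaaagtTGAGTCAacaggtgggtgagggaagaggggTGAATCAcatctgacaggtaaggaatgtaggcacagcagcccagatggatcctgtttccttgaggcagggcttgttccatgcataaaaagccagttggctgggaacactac
IL1A: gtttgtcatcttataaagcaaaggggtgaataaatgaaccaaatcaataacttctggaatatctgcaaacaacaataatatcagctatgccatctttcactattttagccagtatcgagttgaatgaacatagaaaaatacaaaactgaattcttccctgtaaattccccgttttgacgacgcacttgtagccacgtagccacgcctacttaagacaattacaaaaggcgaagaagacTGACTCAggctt

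The matches began 141 and 111 bases before the gene start of SPRR1B and 12 bases before that of IL1A.

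Clade B serpins moved in both directions. SERPINB3, the squamous cell carcinoma antigen 1 gene, was at 95, 119 and 132 in resveratrol cells and 55.5, 84.6 and 97.3 in combination cells, ranges that barely overlapped. Its interaction was -0.62 ± 0.15 (SE), adjusted p = 0.0702, and the sum of it and its near-identical neighbour SERPINB4 departed by -0.594. SERPINB11 was at 9.22, 16.4 and 24.5 in NT, 23.9, 27.8 and 34.5 in resveratrol cells and 7.89, 15.8 and 23.4 in combination cells, few counts in which all resveratrol libraries lay above all combination libraries and slightly overlapped NT. Its interaction was -1.07 ± 0.27 (SE), adjusted p = 0.0737, and it was -1.74 in the first set of replicates and -0.49 in the second. These 2 genes overlap on opposite strands, so reads from one may be counted for the other. SERPINB2 lay above the sum, as given with the plasminogen genes, and 9 of the 11 serpins tested had a value below 0.

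PIF1 (ENSG00000140451, chromosome 15, 64815632 to 64825668) departed furthest below the sum after SERPINB11 and ZBTB8A. It encodes a DNA helicase that unwinds quadruplex DNA and acts at telomeres. In normalized counts it was at 119, 129 and 144 in NT cells, 108, 119 and 139 in EGCG cells, 63.7, 73.5 and 91 in resveratrol cells and 35, 44.7 and 49.6 in combination cells. The combination libraries were below all resveratrol libraries, and these were below the overlapping NT and EGCG ranges. The interaction was -0.69 ± 0.13 (SE), adjusted p = 0.00364. CDCA7, a gene induced by MYC and E2F1, was at 502, 546 and 553 in resveratrol cells and 423, 439 and 503 in combination cells and departed by -0.26 ± 0.059 (SE), adjusted p = 0.0254. SMIM30, which encodes a small membrane protein, was at 122, 156 and 168 with EGCG and 90.3, 105 and 125 in combination cells, and its interaction was -0.50 ± 0.11 (SE), adjusted p = 0.0293.

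Chromatin genes below the sum were MACROH2A2, a histone variant gene (-0.24), and the histone H2A gene H2AC6 (-0.44), the 1 DEG among 21 replication-dependent histones tested, of which 18 lay below 0. Most transcripts of these histone genes lack a poly(A) tail. ZBTB8A (-0.90), ARMH3 (-0.31) and TTC26 of the intraflagellar transport machinery (-0.43) were the others, all named after their values were seen. EGCG alone gave 0.32, 0.10 and 0.26 for these 3, of which the change of TTC26 passed, and EGCG beside resveratrol gave -0.57, -0.21 and -0.17, of which the first 2 passed. With 1 library left out at a time, TTC26 lost its call in 19 of 24 fits, ZBTB8A in 17 and ARMH3 in 16. H2AC6 lost it in 14 and MACROH2A2 in 10.

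DEGs that overlap another expressed gene in the annotation cannot be fully told apart from it, since the strand setting of the counting is not stated. They include CENPA with SLC35F6 and SHC1 with PYGO2 on the same strand. On the opposite strand are KIF20A with BRD8 and CDC23, FILIP1L with CMSS1, SOX15 with MPDU1, MACROH2A2 with AIFM2, RBMS2 with BAZ2A, ZBTB8A with ZBTB8OS, PCNX2 with NTPCR, BORA with DIS3 and KMO with OPN3.

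The remaining lists held no DEG. Among 49 DNA replication genes the median was 0.0128 and 28 lay above 0, with CDC6 at 0.12 ± 0.038 (SE) and LIG1 at -0.18 ± 0.062 (SE) the members with the smallest p. The 31 NRF2 targets, which encode antioxidant and detoxifying enzymes, had a median of 0.0259. The 9 genes that were also assayed by RT-qPCR, mostly NRF2 targets, had a median of -0.00274. Resveratrol alone changed these 9 genes by a median of 1.42 on the log2 scale.

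GCLC, the catalytic subunit of the enzyme that starts glutathione synthesis, was at 721, 766 and 781 in NT cells, 779.9, 824 and 889.9 in EGCG cells, 1966, 2023 and 2121 in resveratrol cells and 2153, 2216 and 2284 in combination cells. Both groups with resveratrol were far above both without. The sum predicted 2212 and the combination had 2213 ± 44.1, an interaction of -0.0027 ± 0.045 (SE) whose sign changed with DESeq2's size factors. NQO1, a quinone reductase, was at 0.01 ± 0.039 (SE), with the other sign when library size alone was used. AKR1C1, AKR1C2 and AKR1C3, near-identical aldo-keto reductases that rose with resveratrol by 2.24, 2.39 and 1.88, were at -0.03 ± 0.12 (SE), -0.12 ± 0.099 (SE) and 0.05 ± 0.15 (SE). GDF15, a stress-induced cytokine, was at 131, 139 and 148 in resveratrol cells and 157, 182 and 210.4 in combination cells, with no overlap, but at 0.21 ± 0.2 (SE) it did not pass. SLC7A11, the cystine transporter, was at -0.01 ± 0.069 (SE) and HMOX1, heme oxygenase 1, at -0.07 ± 0.21 (SE).

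Other metabolic and stress lists had medians near that of all genes. The medians were 0.0187 for 25 sterol synthesis genes, 0.0123 for 18 fatty acid synthesis genes, -0.0198 for 26 hypoxia-inducible genes and -0.00313 for 21 glycolysis genes. They were -0.0442 for 18 selenoproteins, 0.0513 for 37 interferon-induced genes, 0.0319 for 19 heat shock chaperones and 0.0474 for 23 genes of the unfolded protein response. Members with the smallest p were DHCR7 (0.09), ACACB (0.23) and ACSL1 (-0.15), BNIP3L (-0.24) and P4HA1 (-0.10), and GPI (-0.10) and PGK1 (-0.08) for the first 4 lists. They were SELENOW (0.16) and SELENOS (0.13), IRF7 (0.44) and HERC5 (-0.39), HSPA8 (-0.07) and HSPB1 (0.10), and HSPA5 (0.12) and HYOU1 (0.12) for the next 4. Of the 23 genes of the unfolded protein response, 5 had an unadjusted p under 0.05 above the sum and 0 below it. All 15476 genes had 658 and 666. The NRF2 list had 5 above and 1 below of 31, and the metallothionein and zinc export list 3 and 0 of 6. Glycolysis had 1 and 3 of 21, and DNA replication 2 and 4 of 49.

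SELENOW, a selenoprotein that EGCG lowered strongly in both settings, with log2 changes of -1.60 alone and -1.45 beside resveratrol, had an interaction of 0.16 ± 0.062 (SE). The 6 metallothionein and zinc export genes had a median of 0.127 with none passing, and the members with the smallest p were MT1E at 0.21 ± 0.058 (SE) and MT2A at 0.16 ± 0.051 (SE). The 12 squamous epithelial markers had a median of -0.0107, with TP63 at 0.13 and SFN at 0.10. MAFG and SQSTM1 were the NRF2 targets with the smallest p, at 0.19 and 0.10, in a list that ranged from -0.452 to 0.334.

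**Figure D3:**
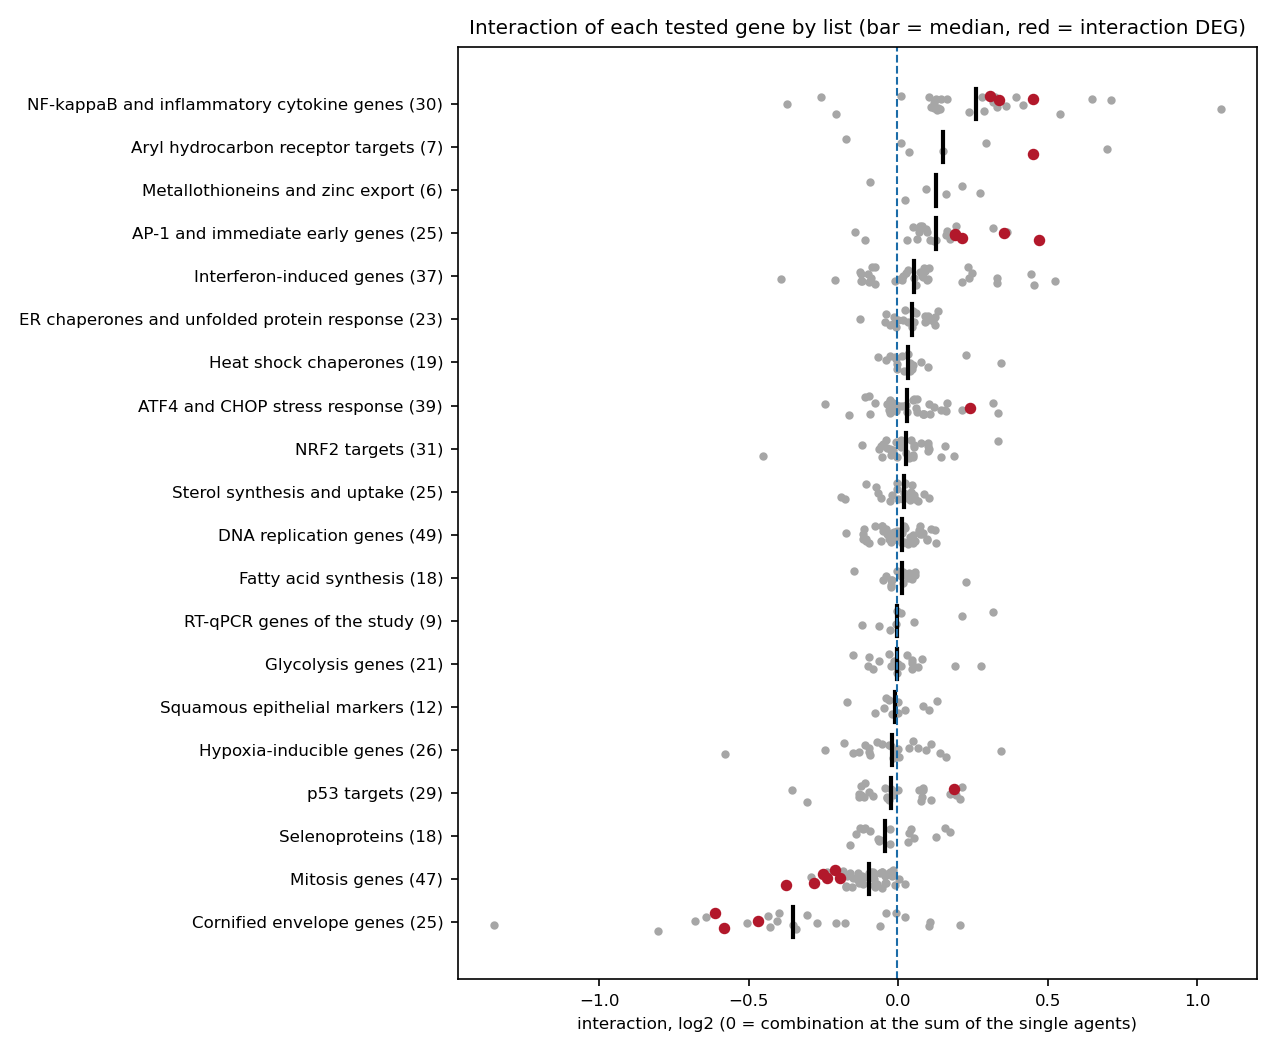
Interaction on the log2 scale (horizontal axis) of each tested gene in 20 lists (rows, number tested in brackets), with the median as a black bar, DEGs in red and the median of all 15476 genes as a dashed line. The mitosis genes (median -0.0991) and cornified envelope genes (median -0.351) sit to the left, and the NF-kappaB genes (median 0.26) to the right.

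The interaction was also estimated within each set of replicates in a model with a separate level for each group and set. All 79 DEGs had the same sign in the 2 sets, but they were chosen on both sets together. The term for a different interaction in the 2 sets gave 0 DEGs over all genes, and 595 genes had an unadjusted p under 0.05. In this model 12 genes (0.0775%) passed in the first set, 0.0582% above and 0.0194% below, and 10 (0.0646%) in the second, 0.0452% above and 0.0194% below. The interaction of CYP24A1 was 0.51 in the first set of replicates and 0.65 in the second. In the same order, AURKA was at -0.24 and -0.27, and SPRR1B at -0.51 and -0.46. Left out 1 at a time, the 24 libraries cost 35 of the 79 DEGs their call at least once, and 44 kept it each time. Those kept included PLAU, COL1A1, FN1, MMP13, MMP3, IER3, DUSP5, IL1A, IL1B, TNFAIP3, AURKA, TOP2A, CENPA, KIF20A, SPRR1B, SBSN, KRT10 and PIF1. Of the named list members, COL5A1 lost its call without 8 of the libraries, FAM83D without 9, PHLDA1 without 11, SERPINB3 without 13, CDKN1A without 14 and SPRR2E without 17, each with the same sign throughout. Among DEGs with large departures, CGB5 lost its call without 11, and KMO and ZBTB8A each without 17. For 19 of the 79 DEGs, the call was lost in more than 12 of these 24 fits.

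**Figure D4:**
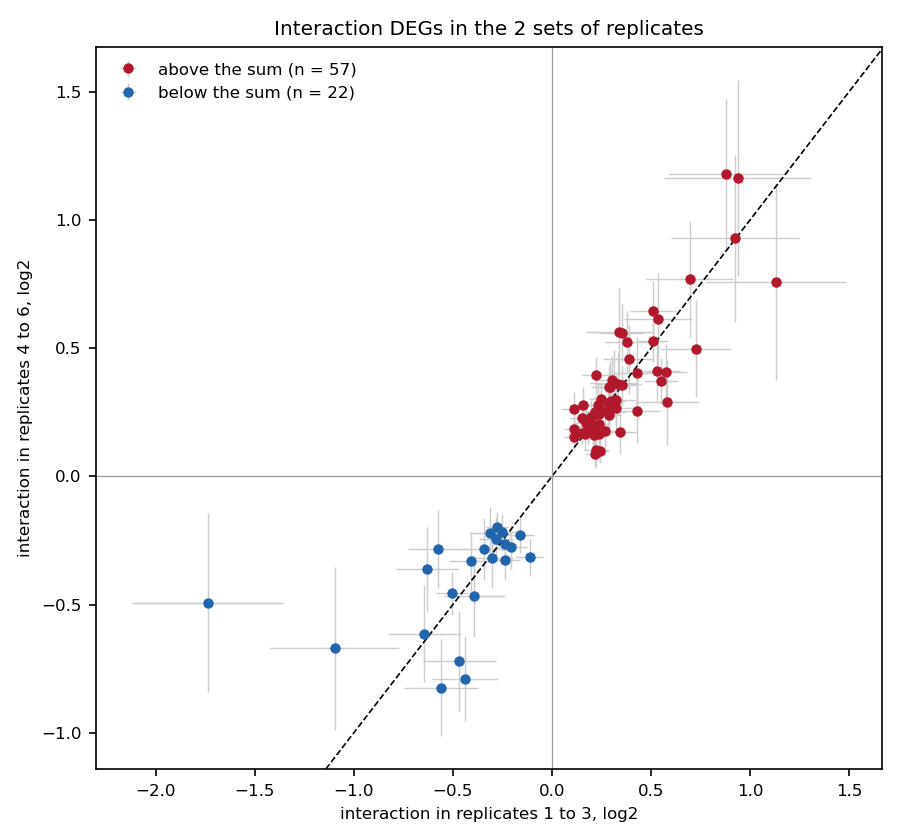
Interaction on the log2 scale in replicates 4 to 6 (vertical axis) against replicates 1 to 3 (horizontal axis) for the 79 DEGs, with bars of 1 SE and a dashed line of equal values. Each point lies in the quadrant of its sign, and SERPINB11 (-1.74 and -0.49) is farthest from the line.

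The log scale is one of several on which the agents could add. On the scale of normalized counts, tested with limma, 133 genes departed from additivity, 118 above and 15 below, and 64 of the 79 DEGs were among them. A gene that both agents lower is predicted higher by a product of fold changes than by a sum of count changes. CYP24A1 was predicted at 218 by the first and 211 by the second, and KIF20A at 730.0 and 683, against 601 measured. PLK1 was predicted at 1012.6 and 911, against 873 ± 48.9 measured, so less of its departure was left on the scale of counts.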

How the data were processed

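RNA of 686Tu cells was made into 24 libraries with the TruSeq stranded mRNA kit, which selects poly(A) RNA and keeps the strand. The labels and methods name bcl2fastq 2.17.1.14, Trimmomatic 0.36, FastQC 0.11.5, HISAT2 2.0.4, SAMtools 1.3.1 and DESeq2 1.20.0. The counting program, annotation release and strand setting were not given in the sources used here. The authors deposited raw counts per gene, which were tested as they stand. The normalized counts (a signal per gene) were made by the authors by dividing counts by DESeq2 size factors, and they are printed as levels. FPKM values, counts scaled by the authors for library size and gene length, were used only for marker genes.

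Groups came from the labels, and replicates 1 to 3 and 4 to 6 were fitted as 2 sets, which is inferred from the data and not named in the labels. Genes passed edgeR's filterByExpr, and 15476 of 60617 remained. In R 4.3.3, edgeR 4.0.16 (TMM scaling, quasi-likelihood test) fitted a term for each group and for the set over all 24 libraries. The SE is the log2 change divided by the square root of F. A DEG needed an adjusted p (Benjamini-Hochberg, over all genes tested) under 0.1 and an unadjusted p under 0.05. Alternatives used limma 3.58.1 and DESeq2 1.42.0. On simulated counts of 15357 genes, the interaction test recovered 34.3% of 67 genes changed by 0.25 on the log2 scale, 62.7% of 67 changed by 0.5 and 86.4% of 66 changed by 1, with 20 false calls.

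Named genes were the 14 DEGs on each side with the smallest p, the DEGs in the gene lists, the 9 RT-qPCR genes and, in a described list with no DEG, the 2 members with the smallest p. Other DEGs and the families of plasminogen genes, collagens, metalloproteinases, matrix glycoproteins, serpins, keratins and histones were chosen after their values were seen, as were the uncalled list members named beside DEGs. The members, lists and motifs were all chosen with earlier results of these data known. Mitochondrial transcripts, another such family, had a median interaction of 0.17 over 16 genes with none called. No libraries were duplicates, with at most 3.328% of the genes tested identical between 2 libraries. A few genes that the rule names are not reported here.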

Additional observations from a re-analysis of the deposited data

Results flagged for a closer look

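In each of 106 genes and 4 groups, the library farthest from the other 5 was compared with Dixon's 95% critical value for 6 samples. Of 424 groups, 23 had a library beyond it, where chance gives 21.2. All values are normalized counts. The high libraries were TGFBI in EGCG replicate 4 (12781.0), MMP13 in EGCG replicate 1 (324.78), SERPINB3 in EGCG replicate 5 (181.88), KIF20A (842.56) and FBLIM1 (855.31) in resveratrol replicate 6, KRT81 in resveratrol replicate 1 (296.12), PSG9 in resveratrol replicate 3 (24.443), DHCR7 in NT replicate 1 (5293.1) and HYOU1 in combination replicate 3 (2269.6). The low ones among genes above the sum were ETS2 in EGCG replicate 5 (1109.2), RBMS2 in EGCG replicate 2 (864.99), PCNX2 in resveratrol replicate 6 (183.81), GPRC5A in combination replicate 4 (4658.2) and HAS3 in combination replicate 2 (1827.6). Those among genes below the sum were TOP2A in NT replicate 3 (5049.6), CDCA7 in resveratrol replicate 3 (501.96), PLK1 in resveratrol replicate 1 (1011.6) and SERPINB3 in combination replicate 5 (55.523). The others were GCLC in NT replicate 4 (721.26), AKR1C2 in NT replicate 6 (202.29), SLC7A11 in NT replicate 3 (2356.3), MAFG in resveratrol replicate 4 (499.51) and DHCR7 in resveratrol replicate 2 (6180.7). Without the library named here, ETS2, RBMS2 and PCNX2 lost their calls, and SERPINB3 lost its call without either of its libraries. The other DEGs named here, HAS3 among them, stayed DEGs without their library.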

How the results depend on the processing

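The 79 interaction DEGs (57 above the sum, 22 below) became 51 at an adjusted p under 0.05 (40 above, 11 below) and 1324 at an unadjusted p under 0.05 (658 above, 666 below). Without the term for the 2 sets of replicates there were 41 (32 above, 9 below), all of them among the 79. Replicates 1 to 3 alone gave 6 (5 above, 1 below) and replicates 4 to 6 alone gave 24 (15 above, 9 below), each with fewer libraries. On the scale of normalized counts there were 133 (118 above, 15 below), and 44 lay below the sum when the filter kept any gene with a count. The other scalings, filters and tools gave 74 to 111 DEGs, among them DESeq2 with 81, limma voom with 84 and scaling by library size alone with 74. Of these, 64, 78 and 67 were among the 79. The filter that kept any gene with a count gave the 111, and 62 of them were among the 79. With the replicate number as a block in place of the set there were 85 (59 above, 26 below), 72 of them among the 79, and 16 of 24 libraries correlated best with others of their own number, which is a hint from the data only. Taken as deviations from their group and set, same-numbered libraries had a median correlation of 0.0013 to 0.0354. That was under the 0.1 required here to treat them as pairs. Leaving out 1 library gave 51 DEGs (without resveratrol replicate 2) to 108 (without combination replicate 3), and 52 without EGCG replicate 4. The number above was 39 to 67 and that below 12 to 41, the lowest without NT replicate 2, EGCG replicate 4, resveratrol replicate 2 or combination replicate 5, 13 without NT replicate 6, EGCG replicate 5 or resveratrol replicate 3, and 14 without combination replicate 6. The cause was not tested. No DEG changed sign under any alternative. Uncalled genes near 0 did, namely GCLC with DESeq2 size factors (7.003e-05), NQO1 with library size alone (-0.001835), AKR1C3 (-0.01536), HMOX1 (0.1815) and GCLC (0.07083) in replicates 1 to 3, HSPB1 (-0.006081), NQO1 (-0.04799), AKR1C1 (0.08199) and SLC7A11 (0.1183) in replicates 4 to 6, and HMOX1 (0.5701) and GCLC (111.3) in normalized counts. Leaving out 1 library, the ranges that crossed 0 were -0.01033 to 0.1177 for AKR1C3, -0.1673 to 0.0655 for HMOX1, -0.004748 to 0.03219 for NQO1, -0.1243 to 0.04159 for AKR1C1, -0.04228 to 0.05284 for SLC7A11 and -0.0177 to 0.02109 for GCLC. The median of the mitosis list was -0.132 to -0.0947, of the cornified envelope list -0.41 to -0.289, of the NF-kappaB list 0.221 to 0.291 and of the AP-1 list 0.0698 to 0.17 under the alternatives other than leaving out 1 library. Those of the p53 list (-0.0733 to 0.0405) and of the markers of other cell types (-0.123 to 0.382) crossed 0. So did those of fatty acid synthesis (-0.0282 to 0.0239), glycolysis (-0.0488 to 0.0385), heat shock chaperones (-0.00608 to 0.0561) and hypoxia-inducible genes (-0.0624 to 0.00793). The RT-qPCR genes (-0.0156 to 0.082), selenoproteins (-0.0569 to 0.0113) and squamous epithelial markers (-0.0493 to 0.0296) also had medians that crossed 0. Over the same alternatives, a DEG kept its call in 758 of the fits counted gene by gene and lost it in 267, with the same sign in both. At this depth and spread, departures of 0.25 on the log2 scale were mostly not detectable in the simulated data.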
